A study of Mus with 6 samples.

Results

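The Krüppel-like factors (KLFs) were examined as a family in leukaemic stem cells from which one of them, Klf4, had been removed. The members are 10 genes, Klf1, Klf2, Klf3, Klf4, Klf5, Klf6, Klf7, Klf9, Klf10 and Klf13, and they were found by their gene symbol in the platform's probe annotation. This gave 18 probes out of 45281 on the array, with 1 to 3 probes per gene. RNA came from bone marrow of C57BL/6 mice with chronic myeloid leukaemia (CML), a disease driven by the BCR-ABL fusion kinase, here in its p210 form. The cells were positive for green fluorescence, Sca-1 and c-Kit and negative for lineage markers, and were sorted 14 days after transplantation. There were 3 wild-type samples (WT) and 3 Klf4-deficient samples (KO), all carrying BCR-ABL. Neither the allele, the Cre driver nor the mice behind each sample are named in the sources at hand, so replicate spread, and every p-value with it, may be technical.

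KLFs are transcription factors with conserved zinc fingers at the carboxyl end, which bind GC-rich and CACCC sequences, and with differing amino ends that recruit different cofactors. Klf1, Klf2, Klf4, Klf5, Klf6 and Klf7 act mostly as activators, Klf3 recruits the corepressor CtBP, and Klf9, Klf10 and Klf13 recruit the corepressor Sin3a. In blood, Klf1 drives red cell genes, Klf2 keeps lymphocytes quiescent, and Klf4 takes part in monocyte differentiation and in the restraint of the cell cycle. Because the zinc fingers are so alike, paralogs can occupy overlapping sites, and the present question is which of them gave a signal where Klf4 is absent. Neither probe nor protein sequences were used here.

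The arrays gave 1 intensity per probe, with background already subtracted, with -31 as the lowest on every array. A value above 32 was taken as signal, a level larger than the size of the lowest value on any array, and lower values were set to 32 before the log2 was taken. Each array had 7082 to 7214 probes over that floor (15.6% to 15.9%). WT replicate 3 stood apart, with a Pearson r of 0.29 to 0.30 with every other array over the 18270 probes tested, while the other 5 arrays correlated at 0.66 to 0.72. Of the genes of the sort gate, Kit read 11.5, 17.4 and 381.5 in WT and 118.1, 7.3 and 63.1 in KO on its brightest probe (-0.24 ± 1.16 log2, SE, n = 3 per group, adjusted p from limma = 0.92), and the difference was 0.95 without WT replicate 3. Over its 3 probes Kit was not above the floor on WT replicate 1 and KO replicate 2. Cd34 passed the floor on KO replicate 3 and no other array, Slamf1 on none, and Ly6a was not analysed here. Cd34, Slamf1 and Flt3 were listed with the gate but are not among the markers sorted on. Of the 3 tested genes of that list, Kit, Cd34 and Flt3, 1 was higher and 2 were lower in KO.

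About as many KLF probes gave a signal as on the array at large. Of the 18 KLF probes, 7 exceeded the floor on at least 1 array, against 40.3% of all probes. They belonged to 6 genes, Klf1, Klf4, Klf6, Klf7, Klf9 and Klf13, while 4 genes, Klf2, Klf3, Klf5 and Klf10, never passed it. In WT, 9 of 54 KLF values were above the floor (16.7%, against 15.8% of all values), and in KO 11 of 54 (20.4%, against 15.9%). A gene was counted as detected in a group when 1 of its probes passed the floor on at least 2 of the 3 arrays. In KO this held for 4 of the 10 members, Klf1, Klf6, Klf9 and Klf13, where 19.6% of all 19057 annotated genes met it. In WT it held for 2, Klf1 and Klf6, against 18.1% of all genes. That order depended on the floor, since a floor of 16 gave 4 detected members in KO and 5 in WT. Leaving out WT replicate 1 or 2 brought the WT count to 0, and leaving out KO replicate 1 or 2 brought the KO count to 2, each with only 2 arrays left in the group. In bulk RNA, fewer cells that express a gene and less RNA per cell cannot be told apart.

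**Figure D1:**
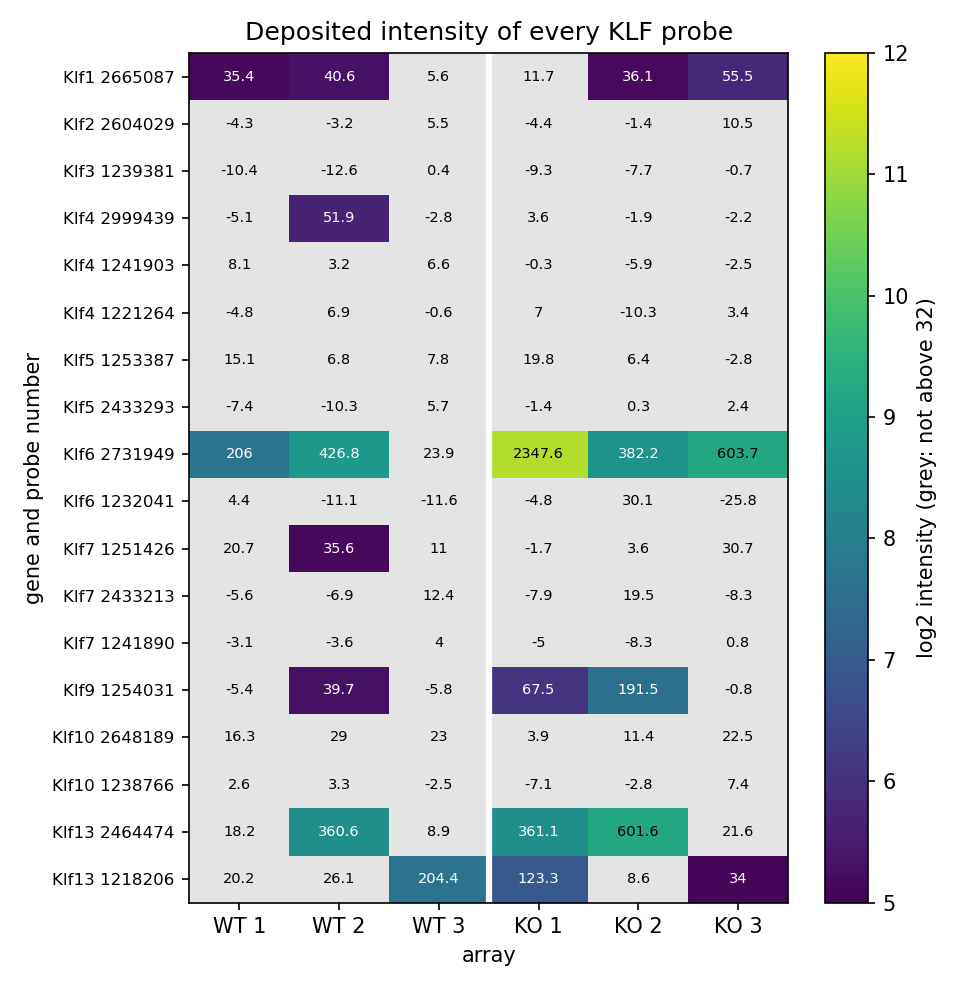
Deposited intensity of each of the 18 KLF probes (rows, gene and probe number) on the 3 WT and 3 KO arrays (columns), with the colour giving log2 intensity for values above 32 and grey for values not above it. The 1 bright Klf6 probe is above the floor on 5 arrays, and the 3 Klf4 probes are grey except for 51.9 in WT replicate 2.

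Klf4 itself gave almost no signal in either genotype. Over its 3 probes, 1 of 9 WT values and 0 of 9 KO values passed the floor. The passing value was 51.9 in WT replicate 2 on probe ILMN_2999439, where WT replicates 1 and 3 read -5.1 and -2.8 and the KO arrays 3.6, -1.9 and -2.2. On the floored scale this probe differed by -0.23 ± 0.25 (log2 KO minus WT, SE, n = 3 per group, 95% interval -0.87 to 0.41, limma adjusted p = 0.71). The difference was 0 without WT replicate 2, so 1 array carried it. Where the probes lie relative to the deleted part of the gene was not analysed here, and the array therefore does not check the knockout labels.

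A second Klf4 probe separated the genotypes below the floor. Probe ILMN_1241903 read 8.1, 3.2 and 6.6 in WT and -0.3, -5.9 and -2.5 in KO, so every WT array was above every KO array. The means were 5.97 ± 2.51 in WT and -2.90 ± 2.82 in KO (intensity, SD, n = 3 per group). The exact two-sided permutation test gave p = 0.1, the smallest value that 3 against 3 samples allow. Any probe with fully separated groups gives this value, so it adds nothing to the separation itself. Among all 45281 probes, 6.23% had WT wholly above KO in the deposited values, and among the 18 KLF probes this was the 1 such probe. No KLF probe had KO wholly above WT, against 4.64% of all probes. The third Klf4 probe overlapped, with -4.8, 6.9 and -0.6 in WT and 7, -10.3 and 3.4 in KO. All values of these last 2 probes lie below the floor, and a fold cannot be formed from them.

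Klf6 was the member above the floor on the most arrays. It encodes a widely expressed activator that responds to growth and inflammatory signals and can induce the cell cycle inhibitor p21. On probe ILMN_2731949 the intensities were 206, 426.8 and 23.9 in WT and 2347.6, 382.2 and 603.7 in KO. The groups overlapped, since WT replicate 2 was above KO replicate 2, and the extremes were the high KO replicate 1 and WT replicate 3, the 1 array below the floor. The means were 7.14 ± 1.93 in WT and 9.67 ± 1.36 in KO (log2 floored intensity, SD, n = 3 per group). The difference of 2.53 ± 1.20 (log2 KO minus WT, SE), or 5.77-fold, missed the threshold (limma adjusted p = 0.71, unadjusted p = 0.087), with a 95% interval from -0.52 to 5.58. It was 1.46 without WT replicate 3 and 1.77 without KO replicate 1, and 3.33 without WT replicate 2, where its unadjusted p was 0.048. The pattern of being above the floor everywhere except in WT replicate 3 was common. It held for 1460 of the 1827 probes above the floor on exactly 5 arrays, or 79.9%. The other Klf6 probe, ILMN_1232041, never passed the floor, with -25.8 to 30.1 over the 6 arrays, so the difference has no second probe behind it.

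**Figure D2:**
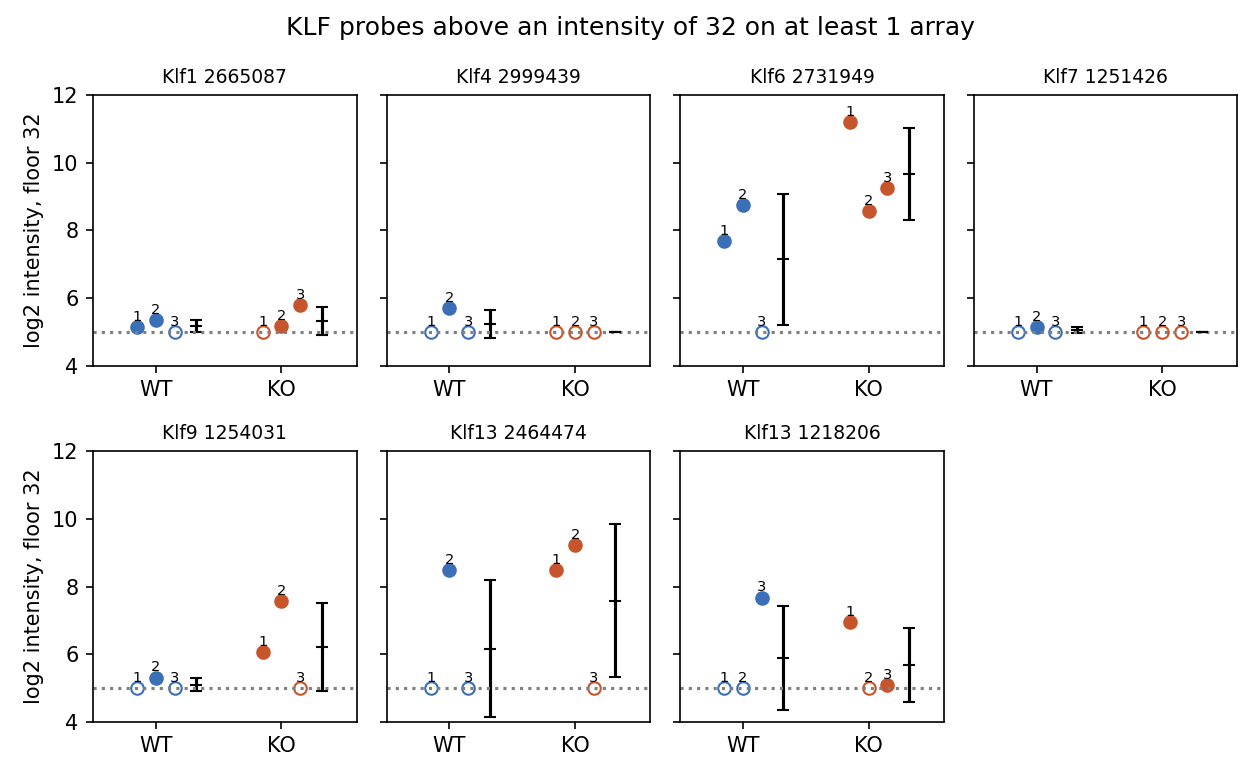
Log2 intensity (values below 32 set to 32, dotted line) of the 7 KLF probes above the floor on at least 1 array, in WT and KO, with the replicate number at each point, open points at the floor and the mean with SD of 3 arrays beside each group. Klf6 has the highest KO value at 2347.6, and in every panel the 2 groups overlap or share arrays at the floor.

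Klf1 was the other member detected in both genotypes. Its single probe, ILMN_2665087, read 35.4, 40.6 and 5.6 in WT and 11.7, 36.1 and 55.5 in KO. It thus passed the floor on 2 arrays of each group and never by much. The difference was 0.16 ± 0.27 (log2 KO minus WT, SE, n = 3 per group, 95% interval -0.53 to 0.85, limma adjusted p = 0.78), and it was 0.078 without WT replicate 3 and changed sign to -0.076 without KO replicate 3. A change in Klf1 was not detectable at this signal. The interval covers the floored scale only, on which changes below 32 do not count.

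Klf9 and Klf13, both recruiters of Sin3a, passed the floor on 2 KO arrays and 1 WT array per probe, not always the same arrays. Klf9, which responds to glucocorticoid and thyroid hormone, read -5.4, 39.7 and -5.8 in WT and 67.5, 191.5 and -0.8 in KO on its single probe, ILMN_1254031. KO replicates 1 and 2 were above every WT array, and KO replicate 3 was at background. The difference was 1.12 ± 0.68 (log2 KO minus WT, SE, n = 3 per group, 95% interval -0.60 to 2.84) and missed the threshold (limma adjusted p = 0.71). It ranged from 0.43 without KO replicate 2 to 1.73 without KO replicate 3, where the unadjusted p was 0.028 and the limma adjusted p 0.80.

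Klf13, known for the late induction of the chemokine RANTES in T lymphocytes, had 2 probes above the floor that disagreed from array to array. Probe ILMN_2464474, for which the annotation gives no transcript accession, read 18.2, 360.6 and 8.9 in WT and 361.1, 601.6 and 21.6 in KO. Probe ILMN_1218206, annotated to the RefSeq mRNA, read 20.2, 26.1 and 204.4 in WT and 123.3, 8.6 and 34 in KO. The array with the highest value on the first probe, KO replicate 2, had the lowest on the second. The first differed by 1.41 ± 1.54 and the second by -0.21 ± 0.97 (log2 KO minus WT, SE, n = 3 per group, limma adjusted p = 0.71 and 0.92). The first was 0.83 without WT replicate 3, 0.58 without KO replicate 2 and 2.70 without KO replicate 3, and the second was -0.85 without KO replicate 1 and turned to 0.68 without WT replicate 3, to 0.13 without KO replicate 2 and to 0.081 without KO replicate 3. Disagreement of this kind was frequent on these arrays. Of the 3148 genes with at least 2 tested probes, the 2 brightest probes had a difference of the same sign in 59.2%.

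Klf9 and the first Klf13 probe shared their arrays. Both were above the floor on WT replicate 2 and KO replicates 1 and 2 and on no other array, and both were highest in KO replicate 2. Among the 1927 probes above the floor on exactly 3 arrays, 151 had this combination, or 7.84%. The second Klf13 probe had WT replicate 3 with KO replicates 1 and 3, a combination shared by 91 of the 1927, or 4.72%.

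The remaining activators gave little. Klf7, which takes part in neuronal and lymphoid development, passed the floor once, at 35.6 in WT replicate 2 on probe ILMN_1251426, where KO replicate 3 read 30.7 just below it. Its difference was -0.05 ± 0.15 (log2 KO minus WT, SE, n = 3 per group, limma adjusted p = 0.88), and 0 without WT replicate 2. The other 2 Klf7 probes lay between -8.3 and 19.5. Klf2 has 1 probe, which lay between -4.4 and 10.5 over the 6 arrays. Klf5, an activator of epithelial proliferation that also acts in granulocyte formation, lay between -2.8 and 19.8 on one probe and between -10.3 and 5.7 on the other.

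Among the repressors, Klf3 and Klf10 were never above the floor. Klf3, a competitor of Klf1 in red cell precursors, has 1 probe here, which lay between -12.6 and 0.4. That probe is annotated to a cDNA clone and not to a RefSeq mRNA, as are 1 probe of Klf7 and 1 of Klf10. Klf10, a gene induced by TGF-beta, read 16.3, 29 and 23 in WT and 3.9, 11.4 and 22.5 in KO on probe ILMN_2648189. WT replicates 2 and 3 were above every KO array and WT replicate 1 was not, all within 32. Its other probe lay between -7.1 and 7.4.

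Over the family, 4 of the 7 tested probes were higher in KO and 3 lower, with a median of 0.16 (log2), against a median of -0.05 over all 18270 tested probes, of which 8374 were higher and 9896 lower. That overall median turned positive without WT replicate 1 (0.013), 2 (0.016) or 3 (0.055), and was 0.22 over probes above the floor on at least 3 arrays. A probe was tested if it passed the floor on at least 1 array, so these 7 are not the whole family. At the threshold of 0.05 on limma's adjusted p, 0 of the 7 were called, as were 0% of all tested probes, and the lowest adjusted p of any probe was 0.32. None of the 7 had an unadjusted p under 0.05, which 2.03% of tested probes had. On floored values none separated the groups, while 2.13% of tested probes had KO wholly above WT and 0.958% had WT wholly above KO. The intervals were widest for the first Klf13 probe, from -2.49 to 5.31, and for Klf6. Differences of several fold in either direction lay inside the interval of that Klf13 probe.

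**Figure D3:**
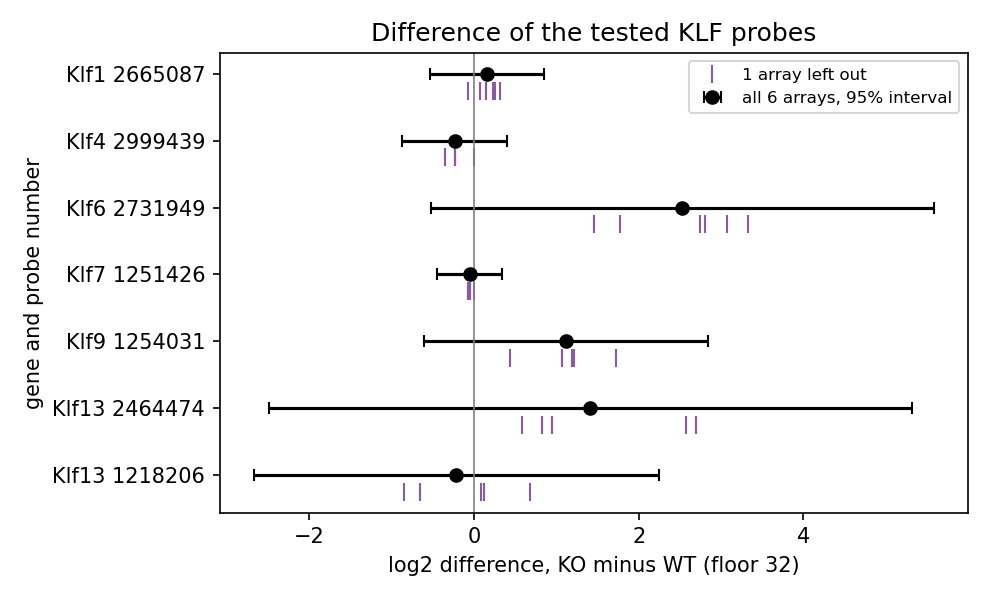
Log2 difference between KO and WT (x axis, floored values) for the 7 tested KLF probes, with the point and 95% interval from all 6 arrays and a tick for each fit with 1 array left out. All 7 intervals include 0, and the ticks of Klf6 run from 1.46 to 3.33 while those of the second Klf13 probe run from -0.85 to 0.68.

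Other genes of the family that were examined are 7 further KLFs and the SP factors Sp1 to Sp8, which share the same type of zinc fingers. Of 15 such genes, 14 had probes here, 6 passed the floor on at least 1 array and 0 were called. In KO, 1 of the 6 was higher and 5 lower, with a median of -0.16 (log2). Klf8, a CtBP-binding repressor, read 193.2 in KO replicate 3 and lay between -8.1 and 10.5 on the other 5 arrays (0.86 ± 0.77 log2, SE, n = 3 per group, adjusted p from limma = 0.71), so 1 array carried its difference, which was 0 without it. Sp3, a ubiquitous factor that competes with Sp1 for GC boxes, read 19.4, 17.3 and 106.7 in WT and 16.5, 16.2 and 14.9 in KO (-0.58 ± 0.53, limma adjusted p = 0.71). Without WT replicate 3 that difference was 0. Of the 27 probes of these genes, 6 separated the groups in the deposited values, 2 with KO higher (4.64% of all probes) and 4 with WT higher (6.23% of all probes). They included 2 of the 5 probes of Klf12, another CtBP-binding repressor, singled out after their values were seen. The other 3 Klf12 probes overlapped. Both separated probes lay below the floor on all arrays, one at 11.4, 14.9 and 18.4 in WT and 0.1, -1.3 and 0.9 in KO.

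The genes around the KLFs were examined next, first the red cell genes known as targets of Klf1. Alas2, the enzyme of the first step of haem synthesis in red cells, read 8.8, 26.1 and -15 in WT and 172, 114.1 and 160.7 in KO. Every WT array was at the floor and every KO array above it, so KO was at least 4.58-fold higher, a bound that moves with the floor of 32 (2.20 ± 0.22 log2, SE, n = 3 per group), and this did not pass the test over all probes (limma adjusted p = 0.59). With a floor of 64 the Alas2 difference was 1.20. E2f2, a cell cycle factor of terminal red cell differentiation, read 144.3, 107.4 and -0.1 in WT and 311, 432 and 225.4 in KO, again without overlap (1.98 ± 0.65, adjusted p = 0.71). A second E2f2 probe had 127.7, 47.1 and -17.3 against 147, 245.7 and 150.6, with every KO array above every WT array too, and the last E2f2 probe stayed below the floor. Without WT replicate 3 the E2f2 difference on the brightest probe was 1.32.

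Of the 19 genes in that list, 16 had a probe and 12 were tested. Of these 12, 8 were higher and 4 lower in KO, 0 were called, and the median was 0.50 (log2, against -0.05 over all tested probes). The 4 lower were Bcl11a (-1.35), Epb42 (-1.33), Icam4 (-0.31) and Aqp1 (-0.006). Bcl11a and Epb42 were above the floor on WT replicate 3 alone, at 534.7 and 505. Aqp1 was above the floor on every array, as was Slc4a1, which differed by 0.36. Klf1 did not separate the genotypes on the same arrays (0.16, above). All 6 red cell markers fixed for this comparison are also in the list. Over the 4 of them that had a probe, the summed floored intensity was 876.4 to 2156 in WT and 2047.5 to 2914.4 in KO, so the ranges overlap. Of these 4, Epor was below the floor on all arrays, and the 3 tested were higher in KO. Hba-a1, an alpha globin whose probe may also detect its near-identical copy, read 686.2, 1996.1 and 74.5 in WT and 1515.8, 1762.7 and 1691.6 in KO (1.82 ± 1.23, adjusted p = 0.71), and its difference was 0.50 without WT replicate 3 and 2.87 without WT replicate 2. Beta globin is not in the summed intensity, since the marker Hbb-b1 had no probe. The list gene Hbb-bt, a beta globin, read 906, 2870.3 and 7.6 in WT and 2971.1, 3143.6 and 3332.5 in KO on its brightest probe. Every KO array was above every WT array (2.85 ± 1.71, adjusted p from limma = 0.71). WT replicate 3, at 7.6, entered this difference at the floor, and its share in it was not tested. The other Hbb-bt probes differed by 2.06, 1.02 and 0.64, each with WT replicate 2 above at least 1 KO array. The part of red cell RNA in these differences was not tested.

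**Figure D4:**
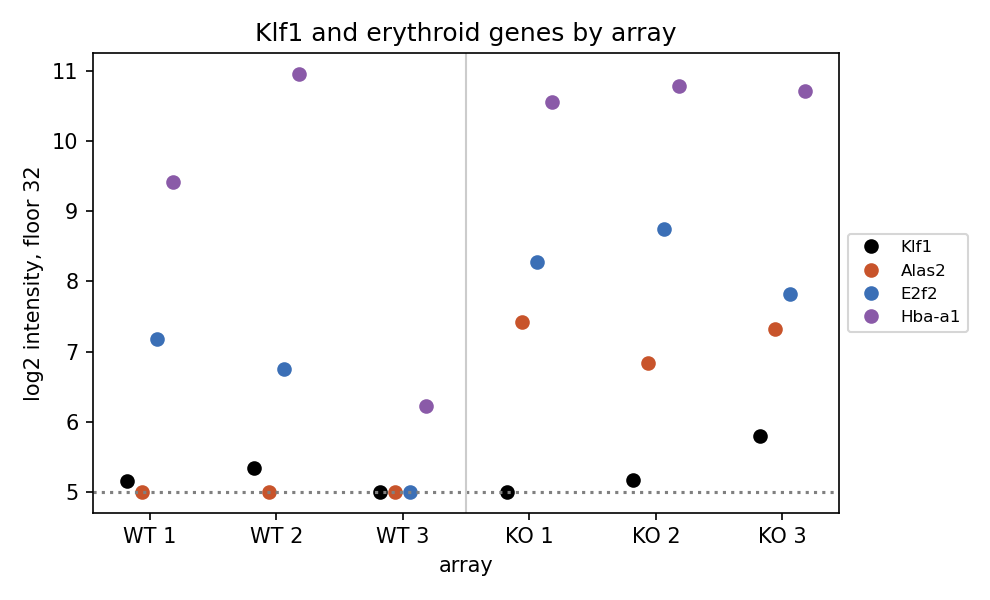
Log2 intensity (values below 32 set to 32, dotted line) of Klf1, Alas2, E2f2 and Hba-a1 on the 3 WT and 3 KO arrays, each gene on its brightest probe and 1 point per array. Alas2 is at the floor on all WT arrays and at 114.1 to 172 on the KO arrays, while Klf1 stays between the floor and 55.5 in both groups.

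Of the regulators known to act upstream of KLF genes, 19 of 21 had a probe, 13 were tested, 3 were higher and 10 lower in KO, and 0 were called (median -0.38, log2). Map2k5 encodes MEK5, the kinase that activates ERK5 and through MEF2 factors induces Klf2 and Klf4 in endothelial cells. On its brightest probe it read 80.2, 246 and 91.4 in WT and 10.6, 15.7 and 36.1 in KO, with no overlap and 2 of the KO arrays at the floor. The difference was -1.87 ± 0.47 (log2 KO minus WT, SE, n = 3 per group, limma adjusted p = 0.71, unadjusted p = 0.0099), and -1.36 without WT replicate 2. A second Map2k5 probe overlapped, with 87.3, 20.4 and 49.8 in WT and 8.7, 68.3 and 1 in KO (-0.33, adjusted p = 0.76), and the last stayed below the floor. Egr1, an immediate early factor that binds GC-rich sites overlapping those of KLFs, read 363.4, 169.3 and 276.2 in WT and 728.9, 760.8 and 818.6 in KO. It was above the floor on every array, with no overlap (1.58 ± 0.32, limma adjusted p = 0.71, unadjusted p = 0.0039). The Egr1 difference was 1.28 without WT replicate 2, its lowest with 1 array left out.

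Of the genes known as Klf2 targets in lymphocyte trafficking and quiescence, 9 of 10 had a probe, 4 were tested, 1 was higher and 3 lower in KO, and 0 were called (median -0.47). Il6ra, the interleukin-6 receptor, read 72.7, 295.5 and 95.3 in WT and 20.2, 23.3 and 25.7 in KO on its brightest probe. All KO arrays were at the floor, so WT was at least 3.97-fold higher (-1.99 ± 0.56 log2 KO minus WT, SE, n = 3 per group, limma adjusted p = 0.71), and the difference was -1.38 without WT replicate 2. Its other 2 probes did not separate in this way, one with 36.1 in WT replicate 3 as its only value above the floor and one with none. The remaining Klf2 targets measured here that did not pass the floor on their brightest probe were S1pr1, Itgb7, Ccr7, Thbd and Klrg1.

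Of the genes known as Klf4 targets, 12 of 15 had a probe, 9 were tested, 4 were higher and 5 lower in KO, and 0 were called (median -0.27). Cdkn1a, which encodes p21 and is induced by Klf4 in epithelial cells, read 10.4, 9.9 and 4.7 in WT and 15.5, 84.2 and 131 in KO on its brightest probe (1.14 ± 0.55 log2, SE, n = 3 per group, adjusted p from limma = 0.71). Every KO array was above every WT array, and 1 of the 3 KO arrays was not above the floor. The difference was 0.70 without KO replicate 3 and 1.71 without KO replicate 1. A second Cdkn1a probe differed by 0.81, and the last was never above the floor. Nanog, a pluripotency gene, passed the floor on WT replicate 2 alone, at 139.7 (-0.71 ± 0.64, limma adjusted p = 0.71). That array also held the single Klf4 value above the floor. Such a match is common, since 1178 of the 8545 probes above the floor on exactly 1 array, or 13.8%, passed it there. The Nanog difference was 0 without WT replicate 2.

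Of 15 corepressors, coactivators and ubiquitin ligases that act with KLFs, 14 had a probe, 11 were tested, 5 were higher and 6 lower in KO, and 0 were called (median -0.06). Crebbp, the acetyltransferase CBP, read 57, 146.5 and -0.6 in WT and 33.5, -0.9 and -7 in KO (-0.99 ± 0.58 log2, SE, n = 3 per group, adjusted p from limma = 0.71), and its difference was -0.39 without WT replicate 2 and -1.49 without WT replicate 3. A second Crebbp probe read 52.4, 141.2 and -6.6 against 31.6, 1.9 and -6.9, an array pattern close to the first. The last Crebbp probe had another pattern, with 119.4, 6.3 and 2.2 in WT and 7, 20.4 and -3.9 in KO (-0.63). It was above the floor on WT replicate 1 alone. Btrc, a substrate receptor of an SCF ubiquitin ligase, read 124, 8.8 and 60.1 in WT and 12.5, 12.4 and 8.7 in KO (-0.95 ± 0.52, adjusted p = 0.71). Leaving out WT replicate 1 gave -0.45, and leaving out WT replicate 2 gave -1.43. Of the other 4 Btrc probes, 2 were tested and differed by 0.013 and 0.085, and 2 were never above the floor.

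**Figure D5:**
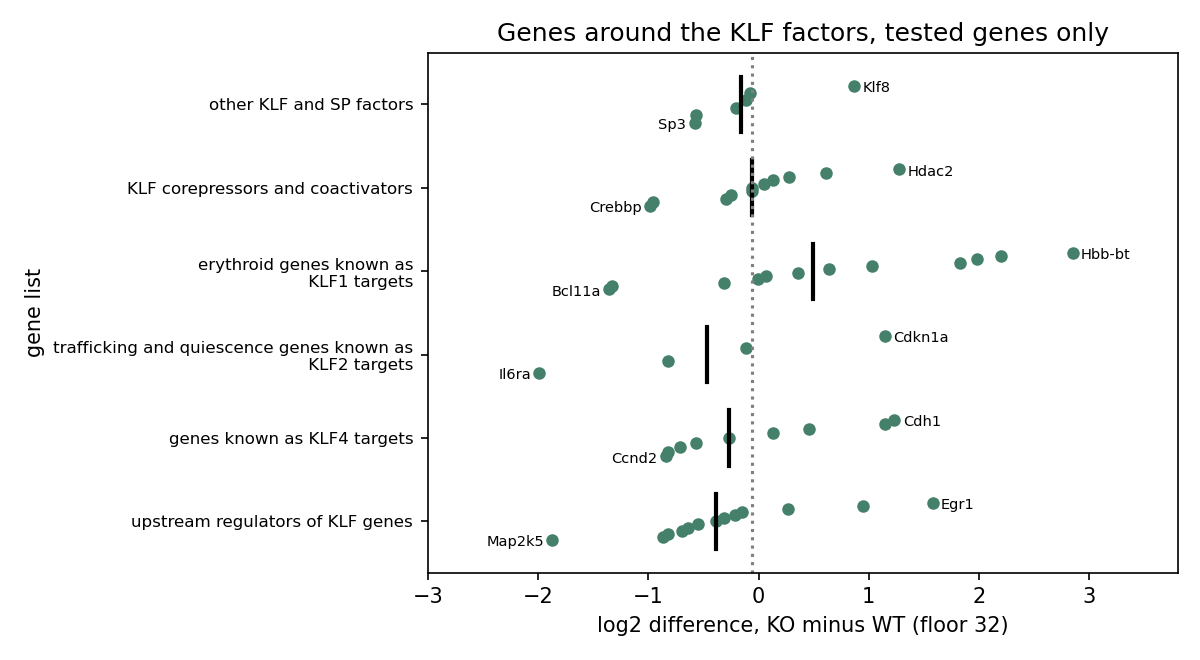
Log2 difference between KO and WT (x axis, floored values) of the tested genes in 6 lists around the KLF factors (rows), 1 point per gene on its brightest probe, with the list's median as a black bar, the lowest and highest gene named and the median of all tested probes as a dotted line. No gene in these lists was called, and the medians run from -0.47 for the Klf2 targets to 0.50 for the red cell genes.

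Markers of other cell types that the sort could hold were summed in the same way. Monocyte and macrophage markers, 5 of 6 with a probe, summed to 160 to 482.7 in WT and 160 to 248.4 in KO, where 160 means that every gene was at the floor. Of the 5, 1 was higher and 4 lower in KO, with a median of -0.30 (log2). The higher one, Ctss, read 9.4, 25.6 and 25.6 in WT and 94.1, 30.5 and 108.9 in KO (1.11 ± 0.51 log2, SE, n = 3 per group, adjusted p from limma = 0.71), and Cd14 passed the floor on WT replicate 3 alone, at 84.7, with no difference left without that array. Neutrophil markers summed to 2145.3 to 7610.5 in WT and 2073.3 to 3042.3 in KO. Of the 6 tested, 3 were higher and 3 lower in KO (median 0.19, log2). Mpo, which early progenitors also express, read 3117, 1735.2 and 7153.2 in WT and 2313.4, 1488.5 and 1422.1 in KO on its brightest probe (-0.99 log2, and -0.45 without WT replicate 3). Its other probes differed by -0.88, 0.14 and 0.72. The neutrophil markers higher in KO were S100a8 (1.33), S100a9 (1.29) and Camp (0.43). S100a8 was above the floor on KO replicate 3 alone, at 505.9. Ngp was below the floor on all arrays. T and NK cell markers summed to 160 to 377.7 and 241 to 334.8 (2 genes higher and 2 lower in KO). Megakaryocyte markers summed to 283.1 to 1484.9 and 522.6 to 1256.7 (1 higher, 2 lower). There Pf4 differed by -1.05 and Gp9 by 1.81, or 0.54 without WT replicate 3. Mast cell and basophil markers summed to 1268.5 to 2980.1 and 2400.6 to 3528.6, with all 4 higher in KO (median 0.62, log2). Prss34 differed by 0.85. Cpa3 differed by 0.38 on its brightest probe and by -1.05 and -0.013 on the others. B cell markers summed to 96 to 129.6 and 96 to 195.6, and the 1 tested gene, Ebf1, differed by 0.15. Thy1, a T cell marker also found on some progenitors, was at the floor on all WT arrays and at 113 to 187.2 in KO, at least 4.55-fold higher on its brightest probe (limma adjusted p = 0.59). Its second probe read 34.6 in KO replicate 3 and was at the floor elsewhere, with a difference of 0.038. The T cell genes Cd3d and Cd3e differed by -0.94 and -0.27, both above the floor on WT replicate 3 alone. Cd3g went the other way, by 0.23, and was above the floor on KO replicate 2 alone, at 51.6. Klrb1c and the B cell markers Cd79b and Pax5 were below the floor on all arrays. The summed ranges of WT and KO overlapped in each of these lists, for T and NK cells through WT replicate 3 alone, since WT replicates 1 and 2 were both at 160. Their part in the KLF values was not tested.

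The genes whose array pattern was most like that of Klf6 and Klf1 were listed by Pearson r of the log2 floored values over the 6 arrays. For Klf6 these were Pgam1, a glycolytic enzyme (r = 0.98), Fam3c (r = 0.98) and Cyba, a subunit of the phagocyte NADPH oxidase (r = 0.98). Predicted genes without a proper name were left out. Among 2201 named probes above the floor on at least 5 arrays, 84 had an r above 0.9, and these probes share the low WT replicate 3. Without that array the values for the listed genes were 0.96, 0.95 and 0.94. For Klf1 the nearest were Polr1d, a shared subunit of RNA polymerases I and III (r = 1.00), Ppp4r3b, a regulatory subunit of a protein phosphatase (r = 0.99), and Dnajb9, a chaperone of the endoplasmic reticulum (r = 0.98). Here 38 of 3386 probes had an r above 0.9. With 6 arrays and so many probes, such values describe these arrays only.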

How the data were processed

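RNA of 6 samples, 3 WT and 3 Klf4-deficient, was measured on one-colour Illumina bead arrays. Per the labels' protocols, a company prepared the targets and scanned the arrays. The software was BeadStudio, per the submitters' processing notes. The deposited values are linear intensities. All 6 columns share their minimum (-31), their maximum and nearly their median (1.6 to 1.7), so background subtraction and scaling to one distribution preceded deposit. Their method is not stated in the labels. Such scaling hides differences in total RNA. No detection p was used here, and the number of arrays limits the precision.

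Values were floored at 32, log2 was taken, and no further normalization was applied. Gene symbols came from the platform's annotation: 34885 probes had 1 symbol, 18 several and 10378 none listed. The probes above the floor on at least 1 array, 18270 of 45281, were fitted with limma 3.58.1 (lmFit, eBayes) in R 4.3.3, KO against WT with no covariate, with Benjamini-Hochberg adjustment over all of them and a threshold of 0.05. The fit was tested on simulated data. Figures used matplotlib 3.10.9.

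Every KLF probe is given. For each list, counts and the 2 tested genes with the smallest p on the probe with the highest mean were taken. A few further genes and probes were named after their values were seen. Members and lists were chosen with earlier results of these data known. Tried as alternatives were other floors, an offset, filters, quantile normalization, trend and robust eBayes, a replicate block, 1 probe per gene, and leaving out each array.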

Additional observations from a re-analysis of the deposited data

How the results depend on the processing

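Over 15 alternatives, 97 refitted differences of the 7 KLF probes gave 93 with the same direction and 4 reversals, all on leaving out 1 array, with no call in any (lowest limma adjusted p = 0.43). Settings that changed only the filter, the eBayes options, the replicate block or the probes per gene left each difference as it was. They could not reverse it, so the 93 do not measure stability. Differences that fell to 0, as for Klf4 and Klf7 without WT replicate 2, are not among the 97. Leaving out 1 array moved Klf1 between -0.076 and 0.32, the second Klf13 probe between -0.85 and 0.68, Kit between -0.83 and 0.95, Ebf1 between -0.53 and 0.49 and Cpa3 between -0.010 and 0.66 (log2). A floor of 16 turned Kit to 0.056. The count of KLF genes detected in WT was 1 with a floor of 64, 5 with a floor of 16, and 0 to 2 with 1 WT array left out. In KO it was 3, 4, and 2 to 3 with 1 KO array left out. KLF probes called were 0 in all settings. Over the whole array 0 probes were called in each, except 1 with no filter on dim probes, the unnamed probe ILMN_2944601, where most probes have no spread; 371 had an unadjusted p under 0.05 with the settings reported, and 175 to 809 under the alternatives. For Klf6 the unadjusted p was 0.020 with an offset of 16, 0.042 with probes above the floor on at least 3 arrays and 0.038 with trend and robust eBayes, at adjusted p of 0.88, 0.92 and 0.58 (0.43 to 0.92 over all alternatives). With a floor of 64, differences from groups at the floor shrank, to 1.20 for Alas2, 1.19 for Thy1, -0.99 for Il6ra, -0.93 for Map2k5 and 0.55 for Klf9. Whether the shared replicate numbers pair the samples is not stated in the labels. Same-numbered arrays correlated at 0.03 to 0.04 after removal of group means, which cannot settle it. With the replicate block 0 KLF probes and 0 probes in all were called, and 362 had an unadjusted p under 0.05. After removal of group means each WT array correlated best with the KO array of its own number, at those same low values. Without that removal WT replicate 3 correlated slightly better with KO replicate 2 (r = 0.2985) than with KO replicate 3 (r = 0.2979). The match therefore does not settle the pairing either. Signal over background limits these results, since 60.7% of the values in the fit were floored.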
